A study of Rattus norvegicus with 30 samples.

Results

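The effect described here is the one that a pair of bariatric operations had in common in rat ileum: the mean of the RYGB minus Sham_RYGB difference and the VSG minus Sham_VSG difference, each operation set against its own sham. It used 24 of the series' 30 arrays, 12 from operated and 12 from sham-operated rats, with 6 in each group. RYGB is Roux-en-Y gastric bypass, in which food is led past most of the stomach and the upper small intestine. VSG is vertical sleeve gastrectomy, in which most of the stomach was stapled off along its greater curvature to leave a narrow sleeve. Sham_VSG rats had the stomach exposed and pressed with blunt forceps along the line of the VSG cut, and the labels give no separate account of the Sham_RYGB procedure. All rats were male, wild type (WT), Long-Evans, 8 to 10 weeks old and on a liquid diet on the day before surgery. The remaining 6 arrays, Sham_VSG_PF, came from rats with the VSG sham operation and paired feeding. They entered the model for its estimate of spread, on which 2 of the 5 calls given below depended. Each array measured ileum from 1 rat, labelled as a separate biological replicate. Values are log2 signals, so that a difference of 1 is a doubling, and means are given ± SD over the 6 rats of a group. Where 3 values are listed for a group, they are its lowest, median and highest.

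The ileum is the last stretch of the small intestine, where bile acids and vitamin B12 are taken up and where little dietary fat or sugar normally arrives. Its absorptive cells are renewed from dividing crypt cells within days, and they adjust their transporters and enzymes to what reaches them. Both operations change the speed and the form in which food arrives there, while bypass alone removes the duodenum from the food stream. A comparison of both operations with both shams asks which differences the operations have in common.

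Some arrays stood apart before any comparison. The bile acid genes of ileal absorptive cells were high in all 30 arrays, with Fabp6 at 11.8 to 12.2 and Slc10a2 at 9.77 to 10.8. The mean of 22 B and plasma cell genes fell into separate ranges, at 6.72 to 7.89 in 3 of 12 operated and 6 of 12 sham arrays, and at 4.51 to 5.20 in the others, the arrays low in B cell genes. The B cell gene Ms4a1 ran from 1.79 to 9.30 in operated and from 2.15 to 9.33 in sham arrays. The mean of 20 fat cell genes was 5.94 to 6.36 in 4 operated arrays (RYGB 1, 3 and 6 and VSG 1), and at most 4.87 in all other arrays, so that 0 of 12 shams were in the high range. These 4 arrays are called fat-rich after this signal. Adipoq, the fat cell hormone adiponectin, reached 6.92 in operated and 2.95 in sham arrays. Of the markers of pancreas, Prss1 reached at most 3.21 and Cpa1 at most 3.08, while Cela1 was at 3.12 to 4.23. In whole tissue, fewer cells of a type and less RNA per cell cannot be told apart. The labels name no batches.

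**Figure D1:**
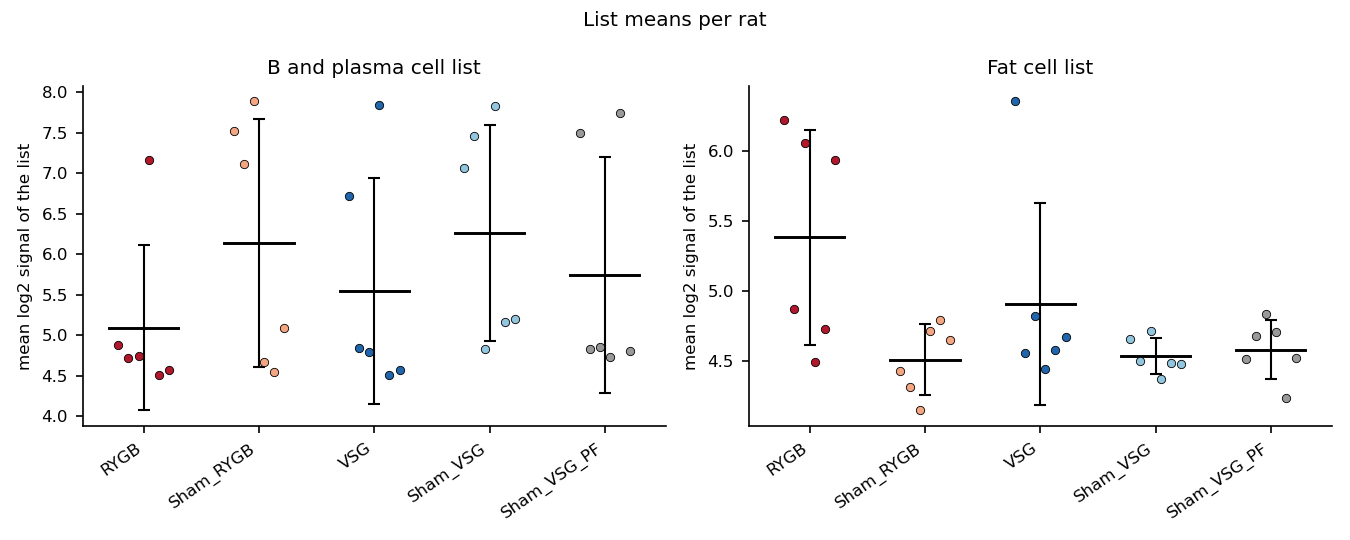
Mean log2 signal of the B and plasma cell list (left) and the fat cell list (right), 1 point per rat, with the group mean as a bar and the SD as whiskers (6 rats a group). High B cell values occurred in every group, in 3 of 12 operated and 6 of 12 sham rats, whereas the 4 high fat cell values were all from operated rats.

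Across the 10918 genes tested, 5 passed an adjusted p of 0.05 for the shared effect by limma with Benjamini-Hochberg adjustment, which is 0.0458% of the genes. The calcium-binding protein gene S100g, the lipid droplet gene Cidec, Cdr2 and the peptidase gene Lap3 rose, and Gpatch4 fell. No gene had all 12 operated arrays on 1 side of all 12 sham arrays (0 of 10918, or 0%). The share of all genes with fewer operated arrays beyond all shams is not given, so such counts below lack a background. At an unadjusted p below 0.05, 642 genes (5.88%) were higher and 864 (7.91%) were lower in operated rats. The number of genes past the adjusted threshold depended on single rats: it was 25 without VSG replicate 4, 17 without RYGB replicate 4, 16 without RYGB replicate 1 and 8 without RYGB replicate 5. It was 3 without any of RYGB 2, Sham_RYGB 1, 2 or 4, VSG 1, 3 or 5, or Sham_VSG 1, 2 or 4. Cidec, Lap3 and S100g kept their calls in all 24 fits that left out 1 array, while Cdr2 lost its call in 16 and Gpatch4 in 17 of them. In a model of the 24 operated and sham arrays alone, Cdr2 and Gpatch4 did not pass (limma adjusted p = 0.0946 for each), and the 4 genes that passed were Cidec, S100g, Lap3 and Areg.

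S100g had the largest shared change of the called genes, 3.36-fold, and its change was about the same size after either operation. The gene encodes calbindin-D9k, a small cytosolic protein of absorptive cells that carries calcium from the brush border to the basal membrane and is a known target of vitamin D. Its log2 signal was 8.38, 11.3 and 11.7 (lowest, median and highest) in RYGB rats, against 7.75, 9.07 and 9.56 in Sham_RYGB rats. In VSG rats it was 9.70, 10.7 and 11.1, against 8.18, 8.82 and 9.38 in Sham_VSG rats. Thus 11 of 12 operated rats lay above all 12 shams, and the exception was RYGB replicate 1, at 8.38. Group means were 10.7 ± 1.296 after RYGB against 8.98 ± 0.65 in its shams, and 10.5 ± 0.55 after VSG against 8.80 ± 0.54. The shared difference was 1.75 on the log2 scale (95% interval 1.12 to 2.38; limma adjusted p = 0.0141). The bypass effect was 1.76 and the sleeve effect 1.75, and their difference was 0.01 (95% interval -1.24 to 1.27; unadjusted p = 0.986).

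The paired-fed shams lay below most sleeve rats in S100g. Sham_VSG_PF rats had 8.00, 8.45 and 9.81 (lowest, median and highest), and all but replicate 4 lay below the lowest VSG rat. Their mean was lower than that of Sham_VSG (-0.24 on the log2 scale). With these rats in place of Sham_VSG, an alternative chosen after seeing the data, the shared difference of S100g was 1.87 (limma adjusted p = 0.00494). It was 1.90 with the 4 fat-rich arrays left out (limma adjusted p = 0.00599) and 1.70 in the arrays low in B cell genes, where it did not pass (limma adjusted p = 0.218). With the fat cell mean as a covariate it was 1.74 and no longer passed (limma adjusted p = 0.240), and with no term for the operation it narrowly missed (limma adjusted p = 0.0507). Without RYGB replicate 1 it was 1.99.

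Other genes of vitamin D action and calcium transport had smaller differences. Of 9 tested members of that list, 7 were higher and 2 lower, with a median of 0.19 beside -0.02 over all genes tested. The list's median was 0.19 after RYGB and 0.10 after VSG. At an unadjusted p below 0.05, 5 members were higher, beside 5.88% of all genes. Atp2b1, the pump that moves calcium out of the cell toward the blood, differed by 0.35 (0.44 after RYGB and 0.25 after VSG). The claudin Cldn2, which forms a cation pore in the tight junction, differed by 0.38 after RYGB and by 0.01 after VSG. Vdr, the vitamin D receptor, differed by 0.05, and Cyp24a1, the enzyme that degrades active vitamin D and is itself a target of the receptor, by 0.07. S100g alone of this list passed after adjustment. The list's median was 0.10 with the B and plasma cell mean as a covariate, 0.11 in the arrays low in both B and fat cell genes and 0.16 with the fat-rich arrays left out, with 2 members higher at an unadjusted p below 0.05 in each.

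Gpatch4 was the called gene that fell, with near-equal differences for the operations. It encodes a G-patch protein, a domain found in activators of RNA helicases. Its log2 signal was 5.05, 5.58 and 5.82 in RYGB rats against 5.72, 6.06 and 6.28 in Sham_RYGB rats (lowest, median and highest). In VSG rats it was 5.28, 5.47 and 6.08, against 5.77, 6.04 and 6.28 in Sham_VSG rats. Of the operated rats, 10 of 12 lay below all 12 shams. The shared difference was -0.49, a 1.402-fold lower level (95% interval -0.68 to -0.29; limma adjusted p = 0.0423). The bypass effect was -0.51 and the sleeve effect -0.47 (difference -0.04, 95% interval -0.43 to 0.35; unadjusted p = 0.817).

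For Gpatch4 the paired-fed shams lay nearer to the sleeve rats. They had 5.50, 5.72 and 5.96, so that VSG was 0.15 lower than Sham_VSG_PF (-0.15 on the log2 scale) while Sham_VSG_PF was itself 0.31 lower than Sham_VSG (-0.31). With the paired-fed rats as the VSG reference the shared difference was -0.33 and no longer passed (limma adjusted p = 0.179). It also missed the threshold when each array was centred on its median (-0.42; adjusted p = 0.0556).

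The promoters of called genes are printed to show the sequence around their annotated starts. They are RefSeq sequences of build GRCr8, written 5′ to 3′ along the gene, and 4 of the 5 called genes had an entry. Gpatch4 (chr2:175807512-175807811, plus strand), Lap3 (chr14:69839842-69840141, minus strand) and Cidec (chr4:148137066-148137365, minus strand) are shown, and Cdr2 held none of the motifs searched. Capitals mark the E-box CACGTG, the nuclear receptor half-site AGGTCA or the AP-1 motif TGANTCA, searched on both strands with no overlapping matches.
Gpatch4: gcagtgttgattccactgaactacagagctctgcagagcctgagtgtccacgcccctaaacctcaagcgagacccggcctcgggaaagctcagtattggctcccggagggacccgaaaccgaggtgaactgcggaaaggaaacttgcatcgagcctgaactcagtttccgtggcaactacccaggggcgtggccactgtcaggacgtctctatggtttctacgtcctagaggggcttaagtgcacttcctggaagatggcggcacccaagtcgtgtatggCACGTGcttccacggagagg
Lap3: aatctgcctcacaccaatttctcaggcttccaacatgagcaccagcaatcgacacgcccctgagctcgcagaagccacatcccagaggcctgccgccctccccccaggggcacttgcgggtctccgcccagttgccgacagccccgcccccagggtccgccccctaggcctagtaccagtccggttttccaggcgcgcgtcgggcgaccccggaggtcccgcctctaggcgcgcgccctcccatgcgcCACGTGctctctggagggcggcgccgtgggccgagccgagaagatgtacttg
Cidec: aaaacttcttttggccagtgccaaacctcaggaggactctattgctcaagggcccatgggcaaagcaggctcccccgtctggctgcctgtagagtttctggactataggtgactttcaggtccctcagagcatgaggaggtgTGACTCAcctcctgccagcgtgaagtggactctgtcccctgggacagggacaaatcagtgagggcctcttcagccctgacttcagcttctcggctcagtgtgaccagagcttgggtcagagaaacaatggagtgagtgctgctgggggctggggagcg
Gpatch4 and Lap3 each held 1 E-box, which 6.42% of 33469 promoters of this length held, and Cidec held 1 AP-1 motif, which 7.33% held. The half-site occurred in 16.2% of all promoters and in none of the 4 examined. These matches describe letters in a window and say nothing of a factor.

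Cidec, Cdr2 and Lap3 had a larger difference after bypass than after sleeve, a contrast that did not pass for any of them after adjustment over all genes. Cidec, which makes lipid droplets fuse and grow in fat cells and in absorptive cells loaded with fat, had 7.53, 7.79 and 8.55 in RYGB rats against 5.18, 6.25 and 6.92 in Sham_RYGB rats. In VSG rats it had 6.78, 6.97 and 7.93, against 6.28, 6.53 and 6.88 in Sham_VSG rats. The groups of the bypass did not overlap, while those of the sleeve did. The share of all genes without overlap in the bypass groups is not given, here or for Lap3 and Areg below. The shared difference was 1.14, or 2.21-fold (95% interval 0.78 to 1.51; limma adjusted p = 0.00545), made of 1.70 after RYGB and 0.59 after VSG. The difference between these effects had an unadjusted p of 0.00377. Cidec is also a member of the fat cell list, and with the 4 fat-rich arrays left out its shared difference was 0.96 (limma adjusted p = 0.0526). In the arrays low in B cell genes it was 0.83 (limma adjusted p = 0.101).

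Lap3, a cytosolic aminopeptidase that trims short peptides, had 9.62, 9.95 and 10.3 in RYGB rats against 8.83, 9.10 and 9.35 in Sham_RYGB rats, with no overlap. In VSG rats it had 9.10, 9.33 and 9.67, against 8.84, 9.24 and 9.53 in Sham_VSG rats, which overlapped. Its shared difference of 0.48 (95% interval 0.31 to 0.64; limma adjusted p = 0.0141) was the mean of 0.84 after RYGB and 0.11 after VSG, and the difference between these had an unadjusted p of 0.000123. Cdr2, the antigen of an autoimmune disease of the cerebellum in people, had 6.71, 7.64 and 8.16 in RYGB rats against 6.09, 6.52 and 6.70 in Sham_RYGB rats. In VSG rats it had 6.25, 7.02 and 7.29, against 6.28, 6.45 and 6.70 in Sham_VSG rats. The shared difference was 0.76 (95% interval 0.46 to 1.06; limma adjusted p = 0.0403), with 1.12 after RYGB and 0.40 after VSG (unadjusted p of the difference 0.0212). With the 4 fat-rich arrays left out, the shared differences of Lap3 and Cdr2 were 0.42 and 0.69 (limma adjusted p = 0.135 and 0.0723).

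**Figure D2:**
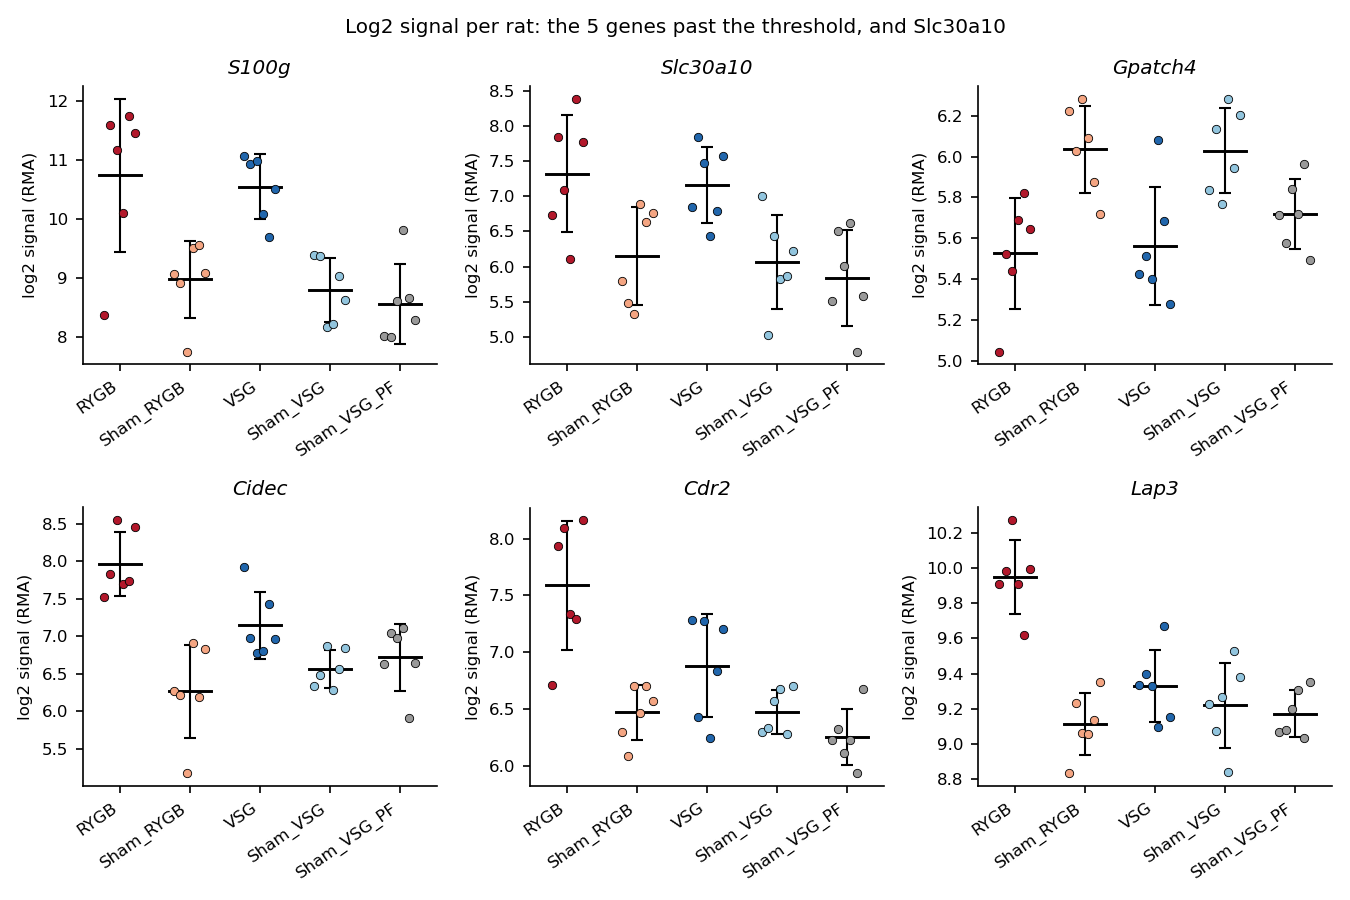
Log2 signal of the 5 genes past the threshold and of Slc30a10 in each rat, 1 point per rat, with the group mean as a bar and the SD as whiskers (6 rats a group). S100g, Slc30a10 and Gpatch4 differed by similar amounts after either operation, whereas Cidec, Cdr2 and Lap3 differed more after RYGB.

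Over all genes, the difference between the bypass effect and the sleeve effect passed the adjusted threshold for 0 genes (0%; limma, lowest adjusted p = 0.406), and 624 genes (5.72%) had an unadjusted p below 0.05. The effects of the operations were estimated from arrays that they did not share. Their Pearson correlation across the 10918 genes was 0.416 and Spearman's rho 0.327, where genes are not independent replicates, and 6632 genes (60.7%) had the same sign in both. RYGB gave 1414 genes (13.0%) with an unadjusted p below 0.05, of which 991 (70.1%) had the same sign after VSG. VSG gave 661 (6.05%), of which 440 (66.6%) had the same sign after RYGB. Of the 20 genes (0.183%) that passed after adjustment for RYGB alone, 15 had the same sign after VSG. Over these 20 genes, the median sleeve effect was 0.259 of the bypass effect. The genes were picked by their bypass effect, so a smaller sleeve effect was favoured in advance. This ratio therefore cannot show how the sizes of the bypass and sleeve effects compare.

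This correlation differed between settings. It was 0.0436 over the arrays low in B cell genes alone, 0.0739 with the B and plasma cell mean as a covariate, 0.234 with the fat cell mean as a covariate and 0.379 with the fat-rich arrays left out. With Sham_VSG_PF in place of Sham_VSG it was 0.155. Leaving out 1 array gave 0.227 (without Sham_VSG replicate 4) to 0.529 (without VSG replicate 4).

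**Figure D3:**
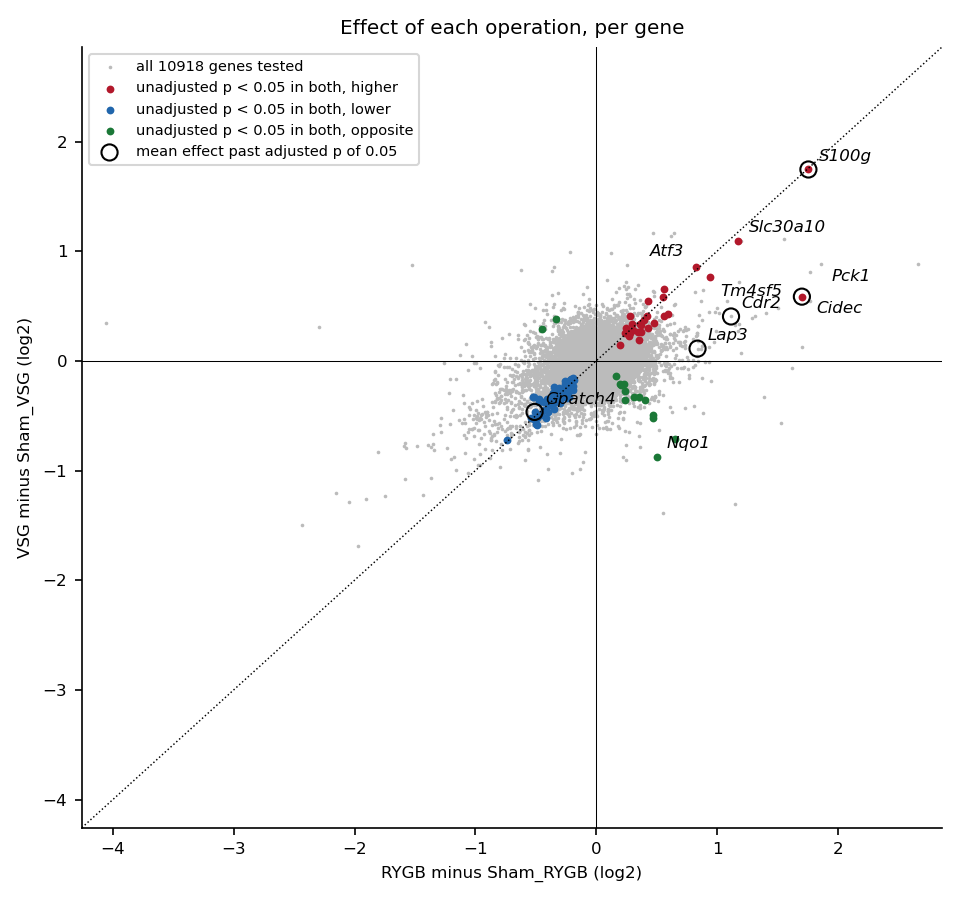
Difference of RYGB from Sham_RYGB (x axis) against difference of VSG from Sham_VSG (y axis), both log2, 1 point per gene for 10918 genes, with equal effects on the dotted line. S100g and Slc30a10 lie on the line at the upper right and Gpatch4 on it at the lower left, whereas Cidec, Cdr2 and Lap3 lie below it.

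Another view counts the genes that differed in each operation on its own, at an unadjusted threshold looser than the adjusted one. That threshold was reached by 13.0% of genes for RYGB and 6.05% for VSG. Lap3 and Cdr2, called for the shared effect, did not reach it after VSG (limma unadjusted p = 0.342 and 0.0593). At an unadjusted p below 0.05 in both operations, 88 genes (0.806%) differed in the same direction, 28 higher and 60 lower, and 15 (0.137%) in opposite directions. Other scalings gave other gene sets with another balance: 80 genes, 65 higher and 15 lower, with each array centred on its median, and 75 genes, 42 higher and 33 lower, with quantile normalization. Of the 88, all 28 higher genes and 15 of the 60 lower genes kept an unadjusted p below 0.05 in both operations after centring. Omitting VSG replicate 4 gave a count of 187, omitting Sham_VSG replicate 4 a count of 51, and omitting Sham_RYGB replicate 3 a count of 56.

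Ranked by the smaller of the bypass and sleeve differences, the metal transporter gene Slc30a10 came next after S100g, while Cidec had a slightly larger shared difference. It encodes a manganese exporter of liver and intestine. Its log2 signal was 6.11, 7.43 and 8.39 in RYGB rats against 5.32, 6.22 and 6.90 in Sham_RYGB rats, and 6.44, 7.16 and 7.84 in VSG rats against 5.03, 6.05 and 7.01 in Sham_VSG rats. The groups overlapped, with 7 of 12 operated rats above all 12 shams. The shared difference was 1.14, or 2.20-fold (95% interval 0.59 to 1.68), with 1.17 after RYGB and 1.10 after VSG, and did not pass (limma adjusted p = 0.101). Sham_VSG_PF rats had a median of 5.79, lower by 0.23 in mean than Sham_VSG (-0.23).

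Of the others of the 28, Atf3, Tm4sf5, Ifnlr1 and Cyp2d4 were taken by the size of the smaller of their differences, as above, and Snrk and Sec24a after their values were seen. Atf3, a transcription factor induced by stress, differed by 0.82 after RYGB and 0.86 after VSG. Tm4sf5, a membrane protein of the tetraspan family, differed by 0.94 and 0.76, and Ifnlr1, the receptor subunit through which epithelium senses interferon lambda, by 0.56 and 0.65, in the same order. The cytochrome P450 gene Cyp2d4 differed by 0.55 after RYGB and 0.58 after VSG, and Snrk, a kinase, by 0.60 and 0.43. Sec24a, a coat protein of the vesicles that leave the endoplasmic reticulum, differed by 0.24 and 0.25. Set against the paired-fed shams, VSG differed by 0.44 in Atf3, 0.30 in Ifnlr1 and 0.16 in Cyp2d4, less than against Sham_VSG, but by 1.42 in Tm4sf5. The shared differences of these 6 genes had adjusted p values of 0.119 to 0.195 by limma.

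Of the 60 lower genes, Pclaf and Map3k8 were taken by the same measure of size and Mrpl23 by its p, while the others named were chosen after their values were seen. Pclaf, a factor that binds the replication clamp, had 6.76, 6.996 and 7.66 in RYGB rats against 7.28, 7.43 and 8.37 in Sham_RYGB rats, and 7.24, 7.66 and 8.06 in VSG rats against 7.43, 8.25 and 8.55 in Sham_VSG rats. The groups overlapped, and its shared difference was -0.53 (95% interval -0.81 to -0.25; limma adjusted p = 0.136). Sham_VSG_PF rats, at a median of 7.66, were close to the VSG rats. Bub1b, a checkpoint kinase of mitosis, differed by -0.40, Brix1 and Utp11, which assemble ribosomal subunits, by -0.36 and -0.23, and the mitochondrial ribosomal genes Mrpl23, Mrps15, Mrps5 and Mrpl30 by -0.23, -0.21, -0.26 and -0.20. Map3k8, a kinase of inflammatory signalling, differed by -0.74 after RYGB and -0.72 after VSG, and VSG differed from Sham_VSG_PF by -0.22.

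Chosen after these values were seen, all 58 tested genes named Mrpl or Mrps gave 7 higher and 51 lower, with a median of -0.10. After centring each array the counts were 14 and 44, with a median of -0.03, while the median of all genes stood at 0.05. Cytosolic ribosomal protein genes were lower in 39 of 42, with a median of -0.08, and in 27 of 42 after centring. Oxidative phosphorylation genes were lower in 38 of 46 with a median of -0.05, and in 38 of 46 with quantile normalization (median -0.05). Centring added the same 0.07 to the shared difference of every gene, so that 29 of the 46 then stood above 0, with a median of 0.02 that was still below the 0.05 of all genes.

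Of the 15 genes with opposite differences, Nqo1 had the widest gap. It encodes a quinone reductase of the oxidative stress response, and had 6.07, 6.81 and 7.001 in RYGB rats against 5.25, 6.32 and 6.67 in Sham_RYGB rats, but 5.71, 6.08 and 6.87 in VSG rats against 6.59, 7.09 and 7.30 in Sham_VSG rats. Its bypass effect was 0.50 and its sleeve effect -0.87, so that the mean of both was -0.19. It was chosen after its values were seen, and the difference between its effects did not pass (limma adjusted p = 0.406).

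Genes of digestion and absorption were mostly higher in operated rats. Over all genes tested, 4982 were higher and 5935 lower, with a median of -0.02, and 642 (5.88%) were higher at an unadjusted p below 0.05. That share is the background for the counts of higher members in this and the next paragraphs. It differed between settings, so counts of list members in other settings, here and elsewhere, lack a background. Of 21 genes of lipid absorption, 20 were higher, 12 of them at an unadjusted p below 0.05, with a median of 0.29 (0.39 after RYGB and 0.11 after VSG). Creb3l3, a transcription factor of apolipoprotein genes, differed by 0.72 (limma adjusted p = 0.141), the apolipoprotein Apoa4 by 0.51 (0.225), the triglyceride-making enzyme Dgat2 by 0.42 (0.159) and the acyl-CoA synthetase Acsl3 by 0.35 (0.0905). In the arrays low in B cell genes the median was 0.14 with 6 genes higher at that p, and with the fat-rich arrays left out it was 0.27 with 10. With the fat cell mean as a covariate it was 0.16 with 3.

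Peptide and amino acid genes were higher in 16 of 17, 8 of them at an unadjusted p below 0.05, with a median of 0.20 (0.24 after RYGB and 0.17 after VSG). Lap3 was the member that passed. Ace, a brush border peptidase, differed by 0.84 (limma adjusted p = 0.0905), and Tmprss15, the enteropeptidase that activates trypsin, by 0.92 (0.188), with 1.71 after RYGB and 0.13 after VSG. The amino acid transporter subunit Slc3a2 differed by 0.20 and Slc16a10, a carrier of aromatic amino acids, by 0.33. In the arrays low in B cell genes the list's median was 0.12.

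All 8 tested genes of sugar digestion and absorption were higher, 2 of them at an unadjusted p below 0.05, with a median of 0.32. The sleeve effect was the larger here, 0.38 against 0.25 for the bypass, a difference that was not tested. The list's median was 0.19 with the B and plasma cell mean as a covariate, and 0.20 in the arrays low in B cell genes. Pck1, the enzyme that starts the making of new glucose, had 7.44, 8.07 and 8.98 in RYGB rats against 4.68, 6.24 and 7.51 in Sham_RYGB rats, and 6.15, 7.28 and 7.99 in VSG rats against 5.24, 6.13 and 7.90 in Sham_VSG rats. The groups overlapped, and the shared difference was 1.37 (limma adjusted p = 0.126). Slc2a2, the glucose carrier of the basal membrane, differed by 0.47 after RYGB and 1.16 after VSG (adjusted p of the mean 0.419). Of 14 genes typical of the upper small intestine, 12 were higher, among them Cbs (0.71) and Cyp2d4 (0.57). The median was 0.24 (0.38 after RYGB and 0.115 after VSG).

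Fatty acid oxidation genes were higher in 25 of 28, 8 of them at an unadjusted p below 0.05, with a median of 0.16 (0.26 after RYGB and 0.04 after VSG). Pdk4, which holds back glucose oxidation when fat is burned, had 6.14, 7.29 and 8.54 in RYGB rats against 4.59, 5.77 and 6.66 in Sham_RYGB rats, and 5.28, 6.41 and 7.52 in VSG rats against 4.79, 6.01 and 6.62 in Sham_VSG rats. Its shared difference was 1.16 (limma adjusted p = 0.138). Ppara, the receptor that switches such genes on, differed by 0.44. In the arrays low in B cell genes 1 member was higher at that p, and the median was 0.10. With the fat cell mean as a covariate the median was 0.07 with 2 members higher at that p. With the fat-rich arrays left out it was 0.11 with 4. Fat cell genes were higher in 20 of 20, 12 of them at an unadjusted p below 0.05, with a median of 0.48. Car3 differed by 1.77, Thrsp by 1.29 and Adipoq by 0.99. Without the 4 arrays high in these genes the list's median was 0.05 and 2 members were higher at that p. Those 4 arrays, all operated, were picked by the mean of this same list, so a smaller median was fixed in advance.

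Growth factor and early response genes were higher in part. Of 15 genes of EGF receptor ligands and mucosal growth factors 11 were higher, 6 of them at an unadjusted p below 0.05, with a median of 0.25 (0.28 after RYGB and 0.11 after VSG). The median was 0.12 in the arrays low in B cell genes, with 4 higher and 1 lower at that p, and with the B and plasma cell mean as a covariate it was 0.08. Areg, an EGF receptor ligand made by epithelium and immune cells, had 5.02, 6.03 and 6.31 in RYGB rats against 4.08, 4.45 and 4.54 in Sham_RYGB rats, which did not overlap, and 4.42, 5.07 and 5.50 in VSG rats against 4.04, 4.56 and 5.17 in Sham_VSG rats, which did. Its shared difference of 0.92 narrowly missed the threshold (limma adjusted p = 0.0523), and Hbegf, another ligand, differed by 0.71 (0.142). Immediate early genes were higher in 17 of 24, 8 of them at that p, with a median of 0.15 (0.24 after RYGB and 0.03 after VSG). Dusp1, a phosphatase that turns off MAP kinases, differed by 0.58 (0.84 after RYGB and 0.32 after VSG), Fosb by 0.86 and Atf3 by 0.84. Of the immediate early genes, 9 were higher at that p in the arrays low in B cell genes.

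Proliferation genes were lower throughout. All 30 tested members were lower in operated rats after each of the operations, 16 of them at an unadjusted p below 0.05, with a median of -0.26 (-0.33 after RYGB and -0.20 after VSG). Over all genes tested, 864 (7.91%) were lower at that p. Rrm1, the large subunit of ribonucleotide reductase, had 6.13, 6.67 and 7.13 in RYGB rats against 6.84, 7.22 and 7.63 in Sham_RYGB rats, and 6.76, 7.04 and 7.39 in VSG rats against 6.91, 7.28 and 7.50 in Sham_VSG rats. The groups overlapped, and its shared difference was -0.39 (limma adjusted p = 0.159). The mitotic motor gene Kif11 differed by -0.35, the replicative helicase gene Mcm7 by -0.36 and the replication gene Gins1 by -0.34. No member passed after adjustment, and 1 of 30 had an unadjusted p below 0.05 in both operations. The median was -0.26 in the arrays low in B cell genes, with 18 members lower at that p, and -0.15 with the B and plasma cell mean as a covariate, with 6. It was -0.17 with the fat cell mean as a covariate, with 3 members lower, and -0.22 with the fat-rich arrays left out, with 8. All 30 were also lower in the shared effect under quantile normalization and after centring, where the medians were -0.23 and -0.19. With the paired-fed rats as the VSG reference the median was -0.20, with 7 members lower at that p. The share of all genes lower at that p in each of these settings is not given beside the counts. Genes of stem cells and Wnt signalling gave 7 higher and 4 lower, with none at an unadjusted p below 0.05.

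**Figure D4:**
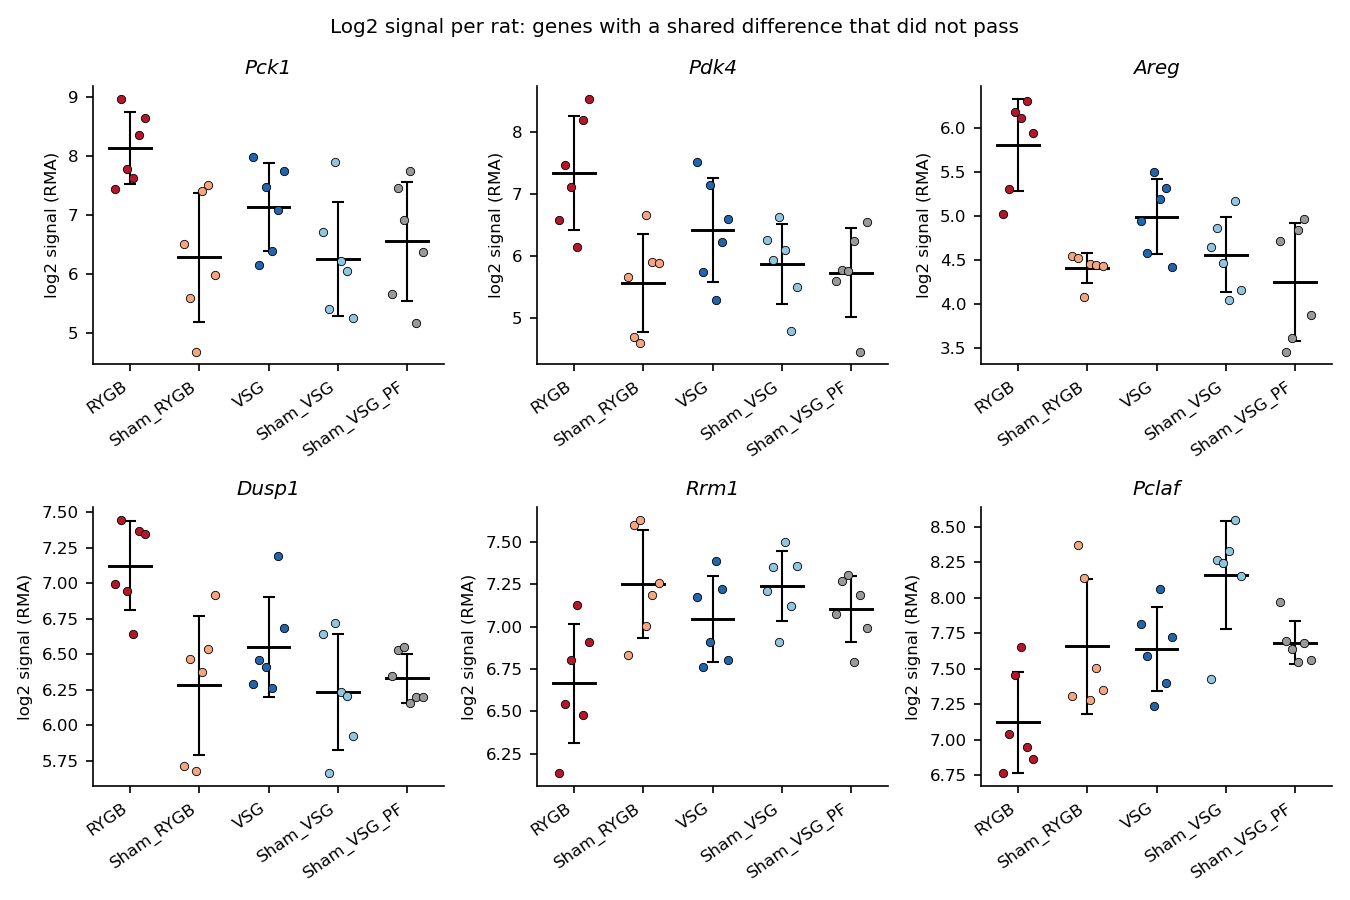
Log2 signal in each rat of 6 genes whose shared difference did not pass the adjusted threshold, with the group mean as a bar and the SD as whiskers (6 rats a group). Pck1, Pdk4, Areg and Dusp1 had higher means in both operated groups than in their shams, and Rrm1 and Pclaf lower means, with overlap between operated and sham rats in each gene.

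Immune cell genes were lower, alongside the arrays' B cell ranges given above. B and plasma cell genes were lower in 20 of 22 with a median of -0.97, T and NK cell genes in 22 of 24 with a median of -0.44, and genes of macrophages and dendritic cells in 19 of 23 with a median of -0.21. At an unadjusted p below 0.05, 3 of 22, 3 of 24 and 6 of 23 members were lower in that order, beside 864 of 10918 genes (7.91%). None of these members passed after adjustment. Ctla4, an inhibitory receptor of T cells, differed by -0.80 (limma adjusted p = 0.226), and Stap1, an adaptor of B cells, by -1.08 (0.295). In the arrays low in B cell genes the medians of the B, T and macrophage lists were -0.20, -0.20 and -0.11. Those arrays were picked by the B list itself, so its own smaller difference there followed from the choice. With the fat-rich arrays left out the T and NK cell median was -0.47, and in the arrays low in both B and fat cell genes it was -0.51, with 8 members lower at that p. With the B and plasma cell mean as a covariate the T and macrophage medians were -0.03 and -0.04, with 1 member lower at that p in each. The fat cell mean as a covariate gave -0.27 and -0.16, with 0 and 1 members lower. Tuft cell genes were lower in 18 of 20 with a median of -0.26. The median was -0.52 after RYGB and 0.02 after VSG, a difference that was not tested. Cxcl6, a chemokine for neutrophils, differed by -0.57 (limma adjusted p = 0.141).

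The iron and hormone genes that the series is about gave little in common. Of 16 iron genes 10 were higher and 6 lower, with a median of 0.06. Tfrc, the transferrin receptor, differed by 0.82 after RYGB and by -0.04 after VSG, with an unadjusted p of 0.000458 for the difference between them and a shared difference of 0.39 (limma adjusted p = 0.159). Set against the paired-fed shams, VSG differed by 0.30 in Tfrc, and Sham_VSG_PF was itself lower than Sham_VSG (-0.34). Over the 45 settings the shared difference of Tfrc ran from 0.11 to 0.56. Slc40a1, the iron exporter, differed by 0.22, Heph, the oxidase that works with it, by 0.22, and Cybrd1, the brush border iron reductase, by -0.03, with adjusted p values of 0.378 to 0.960 by limma. The 95% interval of Cybrd1 ran from -0.44 to 0.38. Without RYGB replicate 5, which was apart from its group in Slc40a1, the difference of Slc40a1 was 0.098. Of 18 hormone genes 9 were higher and 9 lower. Pyy, the hormone of ileal L cells that slows the gut, differed by 0.23 (limma adjusted p = 0.302), Gcg, the source of GLP-1, by 0.13 (0.649), and neurotensin (Nts) by 0.31 (0.448). The 95% intervals for these 3 hormone genes ran from 0.03 to 0.43, from -0.14 to 0.39 and from -0.09 to 0.71. Without Sham_RYGB replicate 3, Gcg differed by 0.065 and Nts by 0.198, and Gcg differed by 0.078 without RYGB replicate 6 and by 0.074 without VSG replicate 6.

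**Figure D5:**
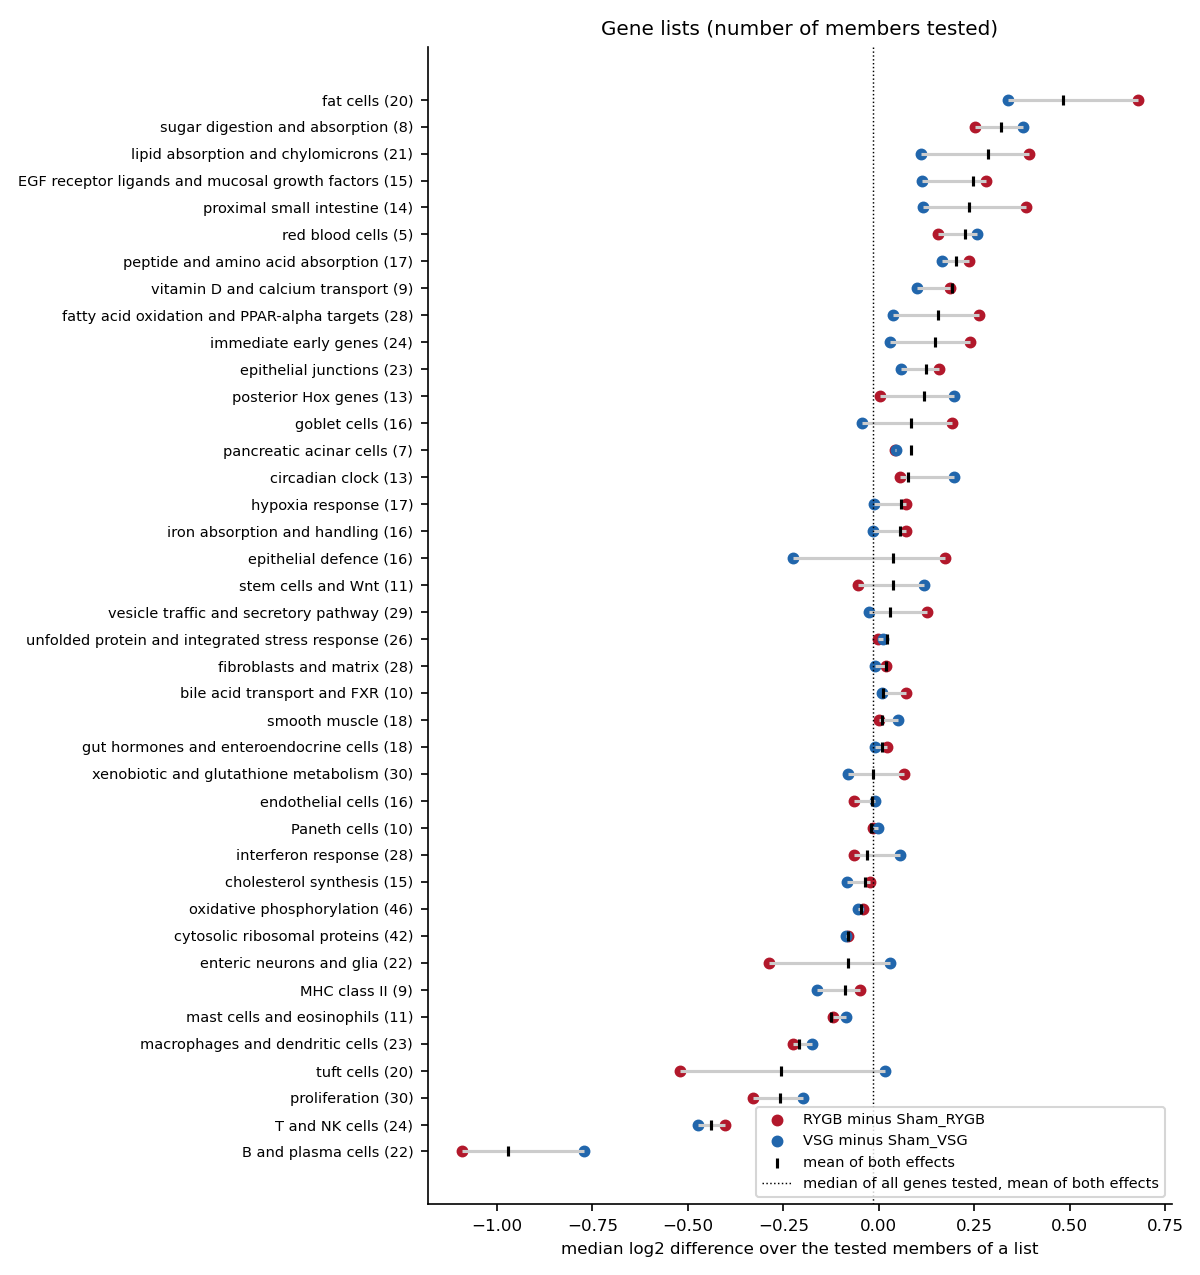
Median log2 difference over the tested members of each of 40 gene lists, for RYGB minus Sham_RYGB, VSG minus Sham_VSG and the mean of both, with the number of members tested in brackets. Lists of fat cells, sugar and lipid absorption lie above the median of all genes (dotted, -0.02), and B and T cell and proliferation lists below it.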

How the data were processed

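Total RNA from ileum was amplified and hybridized to 1-colour Affymetrix arrays, per the labels' protocols. The authors deposited log2 values made by RMA, and used Affymetrix Expression Console 1.3.0.187, per the submitters' processing notes. Which arrays were normalized together is not given in the sources used here. No detection calls or scanner files were used. Of 36685 transcript clusters, 14824 carried exactly 1 gene symbol. The brightest cluster of each of 14557 symbols was kept, and the 10918 genes above the 25th percentile of mean signal (2.33) were tested. Limma 3.58.1 in R 4.3.3 fitted 5 group means to 30 arrays (25 residual degrees of freedom), so that the 6 Sham_VSG_PF arrays added to the estimate of spread, with two-sided p-values adjusted over all genes. The median 95% interval reached 0.216 to either side, and the number of arrays limits precision. Sham arrays of the operations are separate.

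The comparison, the 40 gene lists and the named genes were chosen with earlier results of these data known. The rule for names took the called genes, up to 10 a direction by p, the first member of each list, the 10 largest differences held in both operations, and iron and hormone genes. Further list members named were chosen after their values were seen. The model was tested on simulated data. Alternatives numbered 45, of which 24 left out 1 array. Figures used matplotlib in Python.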

Additional observations from a re-analysis of the deposited data

Results flagged for a closer look

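Among 68 named genes in 5 groups each (340 groups of 6 rats), 20 single rats lay far from the other 5 of their group, by Dixon's criterion for a gap relative to the group's range. Chance gives about 1 in 20 groups, so the number is close to what chance gives. All values are log2 signals. For S100g, Sham_RYGB replicate 3 was at 7.754, below the others, and Sham_VSG_PF replicate 4 was at 9.813, above them. Of the remaining genes, Sham_RYGB replicate 3 was also apart in Areg (4.08) and Tac1 (7.184).

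VSG replicate 4 was apart in Gimd1 (4.59), Snapc5 (7.443), Rnaseh1 (5.591) and Defa7 (2.475), and its omission raised the number of genes past the threshold to 25. VSG replicate 6 was apart in Zfp775 (3.42). Among RYGB rats, replicate 5 was apart in Klk1b3 (7.55), Slc40a1 (6.329) and Cybrd1 (9.037), replicate 3 in Abcb4 (3.308), replicate 4 in RT1-DOb (5.519) and replicate 2 in Actn1 (7.063). Sham_VSG replicate 1 was apart in Pclaf (7.428). Among paired-fed shams, replicate 1 was apart in Pclaf (7.972) and Zfp775 (4.665), replicate 5 in Fcgbp (9.959) and replicate 6 in Snapc5 (6.906). What set these rats apart was not tested.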

How the results depend on the processing

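The 5 genes past the threshold became 11 with a filter at the 50th percentile, 10 with array quality weights, 309 (143 higher, 166 lower) with the smooth muscle mean as a covariate, 19 at an adjusted p below 0.10 and 3 with a change of at least 1.5 times. With no term for the operation the count was 0 (limma, lowest adjusted p = 0.0507, 1480 genes at an unadjusted p below 0.05). With the fat cell mean as a covariate it was 0 (0.240 and 742). Same-numbered arrays correlated at a median of 0.0843, from -0.659 to 0.702, with 29 of 60 pairs above 0.1. These are not correlations of the whole signals, which were 0.952 to 0.981 between any 2 of the 30 arrays. Of 30 arrays, 7 correlated best with their own number. The same-number correlations run from negative to positive and cannot settle whether the replicate numbers pair the rats. A replicate block gave 0 genes past the threshold on 24 arrays (limma, lowest adjusted p = 0.0570, 1645 at an unadjusted p below 0.05) and 6 on 30 arrays. Alternatives chosen after seeing the data gave 3 in the arrays low in B cell genes (Gja5, Tmem150b and Ace, none of the 5), 2 with the 4 fat-rich arrays left out (S100g and C1h11orf24) and 18 with Sham_VSG_PF in place of Sham_VSG (4 of the 5 among them). Leaving out 1 array gave 3 to 25. The bypass minus sleeve difference called 0 genes, but 1 (Rab30) in the arrays low in both B cell and fat cell genes. The 88 genes of the same direction in both operations became 50 with the B cell mean, 45 with the fat cell mean and 199 with the smooth muscle mean as a covariate, and 51 to 187 without 1 array. Centring added the same 0.07 to every gene, which put Cybrd1 at 0.037. Signs turned for uncalled genes in other settings: Cybrd1 was 0.10 with the fat cell covariate, 0.13 with the fat-rich arrays left out, 0.28 in the arrays low in both, and -0.22 to 0.051 without 1 array. Hoxb6 was -0.0057 and Gcg -0.018 with the B cell covariate. With low B cell genes alone Gcg was -0.0360, and -0.0362 in arrays low in both. Nts was -0.066 with the fat cell covariate. The cause of these shifts was not tested.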
